A study of Mus musculus with 8 samples.

Results

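The nuclear pore and nuclear transport genes described here are 40 mouse genes, 26 for proteins of the pore itself and 14 for the Ran cycle, importins and exportins that carry cargo through it. They were followed in the Gr1lo (Ly-6clo) and Gr1hi (Ly-6chi) subsets of mouse monocytes. A probe set of the array, a group of short probes that reads the end of a transcript, was taken as a member if its annotation gave exactly 1 of these symbols. This gave 104 probe sets for 38 of the genes, out of 45037 probe sets that are not array controls. For Nup35 and Tpr no such probe set was found, and they were not analysed here. The list was drawn up because Nup genes were already known to run higher in Gr1lo cells on these same arrays, so every difference between the subsets below describes the arrays and is not offered as evidence that these genes differ.

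Both subsets came from C57Bl/6 mice 12 weeks of age, and the labels name no treatment, mutation or transgene. The leukocytes of 5 mice were combined for a sort, so each sample is a pool of animals, and sorting was done on 4 occasions, which gave 4 Gr1lo and 4 Gr1hi samples with 1 Affymetrix 3' expression array each. Gr1lo cells are known as patrolling, nonclassical monocytes and Gr1hi cells as classical monocytes that enter inflamed tissue. Human arrays that the design mentions were not analysed here.

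The nuclear pore is a ring-shaped assembly that spans the nuclear envelope. Its scaffold of outer and inner rings is held in the membrane by a few transmembrane proteins, and it carries flexible proteins rich in phenylalanine-glycine (FG) repeats that fill the channel and reach out as cytoplasmic filaments and a nuclear basket. Cargo passes when importins or exportins, which bind the FG repeats, carry it. Direction comes from the small GTPase Ran, which is loaded with GTP in the nucleus by Rcc1 and made to hydrolyse it in the cytoplasm by Rangap1. In monocytes this machinery carries signal-activated transcription factors such as NF-kB and STAT proteins into the nucleus.

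Values are log2 intensities, and every difference is Gr1lo minus Gr1hi on that scale. A probe set was tested if its intensity exceeded 81.9, the median of the whole table, in at least 4 of the 8 arrays, and 22831 probe sets passed. Of the 104 member probe sets 83 passed and 21 did not, no tested member probe set was dim on all arrays of a subset, and all 38 genes kept at least 1. Each gene was represented by its tested probe set with the highest mean. "Called" means a limma Benjamini-Hochberg adjusted p under 0.05 over all tested probe sets. Array medians lay between 80.5 and 83.0, and arrays give no read depth, so their number limits the precision. The subset genes followed the labels, with all 5 tested Gr1lo genes (Nr4a1 among them) called higher in Gr1lo and all 3 tested Gr1hi genes (Ccr2 among them) called higher in Gr1hi. Of 6 general monocyte genes, Cd68 (0.37) and the receptor Csf1r (0.19) were called higher in Gr1lo, while Fcgr1 (-1.22), Cd14 (-1.12) and Lyz2 (-0.25) were called higher in Gr1hi. The labels do not say that a sample number marks a shared sort. The p-values set the mean difference between the subsets against the spread among pools of the same subset, with no term for the sort.

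Most pore and transport genes stood slightly higher in Gr1lo monocytes, and the transport factors did so to about the same extent as the pore. Of 38 measured genes 26 were called higher in Gr1lo, where 14.1% of all 11546 represented genes were, and 2 were called higher in Gr1hi, where 18.5% of all genes were (32.5% in either direction). Because the members were picked on this contrast, nothing is read from these shares. The same holds for the counts by role group below. For arrays that did not overlap, the shares of all represented genes were 14.7% with Gr1lo above and 19.2% with Gr1hi above. The median difference was 0.27 over the 24 pore genes and 0.31 over the 14 transport genes, against -0.01 over all represented genes. The changes were small. Only 2 members differed by more than 1 on the log2 scale, Kpna4 and Nup210, and 7 by more than 0.5. In total RNA of sorted populations, more transcript per cell and more cells that express a gene cannot be told apart.

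**Figure D1:**
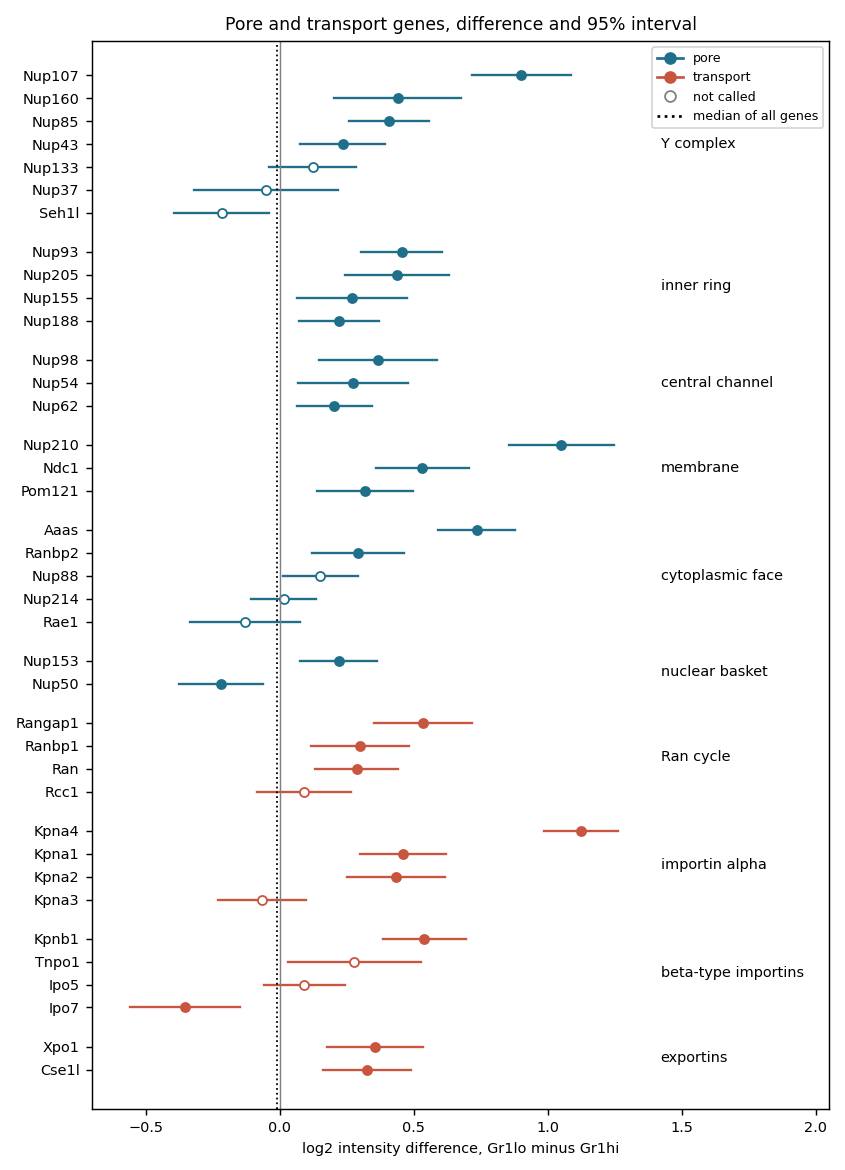
Difference in log2 intensity, Gr1lo minus Gr1hi, for the 38 measured genes by role (points, with unadjusted 95% intervals as lines; open points were not called). Pore genes are blue and transport genes red; 32 of the 38 points lie above 0, and the dotted line marks the median of all represented genes, -0.01.

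The members with the widest differences were an importin alpha, a membrane protein of the pore and a scaffold subunit. Kpna4 encodes an importin alpha, the adaptor that reads a cargo's nuclear localisation signal, and stood at 10.75, 10.73, 10.90 and 10.90 in the Gr1lo arrays, against 9.71, 9.69, 9.69 and 9.70 in the Gr1hi arrays. The Gr1hi arrays lay almost on top of each other and far below every Gr1lo array. The difference was 1.12 (SE 0.06), a 2.18-fold higher intensity in Gr1lo, and 1.43% of all represented genes had a larger one.

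Nup210 (gp210), a glycoprotein anchored in the membrane around the pore, stood at 9.94, 9.69, 9.80 and 9.94 in Gr1lo, against 8.92, 8.58, 8.89 and 8.78 in Gr1hi. The subsets were well apart, with a difference of 1.05 (SE 0.09) or 2.07-fold. Nup107, a core subunit of the outer-ring scaffold, stood at 9.60, 9.66, 9.87 and 9.51 in Gr1lo, against 8.80, 8.75, 8.63 and 8.85 in Gr1hi. It differed by 0.90 (SE 0.08), 1.87-fold, again with no overlap. The only probe set of Nup107 ends in _s_at, an array mark for probe sets that can match several transcripts. Nup107 therefore had no value in the alternative limited to probe sets ending in plain _at. Aaas encodes ALADIN, a WD-repeat protein tethered to the pore by Ndc1. Its values were 7.51, 7.63, 7.46 and 7.50 in Gr1lo, against 6.84, 6.86, 6.69 and 6.78 in Gr1hi, a difference of 0.73 (SE 0.07) with every Gr1lo array above every Gr1hi array.

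The 2 members called higher in Gr1hi were Ipo7 and Nup50. Ipo7 is an importin that carries ribosomal proteins, linker histone and some signalling proteins. It stood at 9.84, 10.22, 9.96 and 10.28 in Gr1lo, against 10.45, 10.39, 10.41 and 10.47 in Gr1hi, a difference of -0.35 (SE 0.09). The Gr1lo arrays were spread out while the Gr1hi arrays were tight, and the groups did not overlap. Nup50, a mobile protein of the nuclear basket that helps release importin alpha from its cargo, stood at 8.03, 8.06, 7.87 and 8.02 in Gr1lo, against 8.33, 8.22, 8.24 and 8.09 in Gr1hi. It differed by -0.22 (SE 0.07), with the lowest Gr1hi array just above the highest Gr1lo array. Without both arrays numbered 1, neither was called (0 members called higher in Gr1hi). The call for Nup50 was lost in 10 of 20 alternatives in all, among them leaving out Gr1lo array 1, 3 or 4 or Gr1hi array 1, 2 or 3, each alone (differences of -0.18 to -0.23). For Nup50 the other 2 tested probe sets differed by -0.07 and 0.00, neither called.

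**Figure D2:**
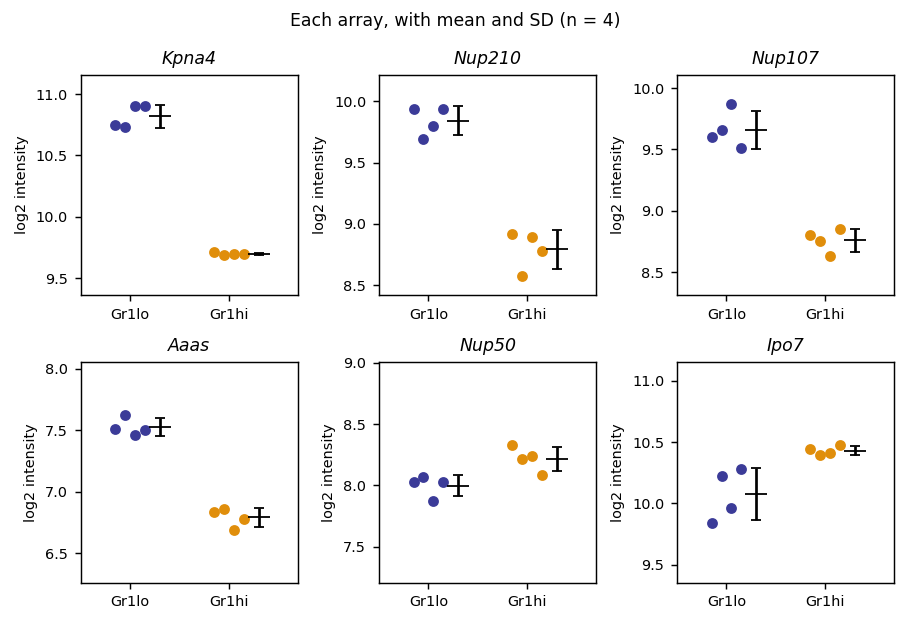
Log2 intensity in each array (points, Gr1lo left and Gr1hi right, 4 arrays each) with mean and SD beside them, for the 4 members with the largest positive differences and the 2 called higher in Gr1hi. Each panel spans the same height of 1.8 log2 units around its gene's mean; the subsets do not overlap in any of the 6 panels, and the panels of Kpna4 and Nup210 show the widest gaps.

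The upstream sequences of these 6 genes are shown because they set the members that stood apart most in each direction side by side. Promoter windows (RefSeq, GRCm38.p6) were found for 32 of the 38 measured genes, 37 windows in all, since 5 genes have several. Each window runs from 250 bases before the annotated start to 50 after it. The 200 bases just before the start are printed in the direction of the gene. Capitals mark matches on either strand to 4 motifs, the NRF1-type palindrome (the first run of capitals after the GC boxes in Nup107), CCGGAAG (ETS-type), CCAAT and GGGCGG (the GC box). The Kpna4 stretch is chr3:69127093-69127292 on the minus strand, that of Nup210 chr6:91116827-91117026 on the minus strand, that of Nup107 chr10:117792706-117792905 on the minus strand and that of Aaas chr15:102350760-102350959 on the minus strand. Those of the genes called higher in Gr1hi are chr15:84923228-84923427 on the plus strand for Nup50 and chr7:110018115-110018314 on the plus strand for Ipo7.
Kpna4: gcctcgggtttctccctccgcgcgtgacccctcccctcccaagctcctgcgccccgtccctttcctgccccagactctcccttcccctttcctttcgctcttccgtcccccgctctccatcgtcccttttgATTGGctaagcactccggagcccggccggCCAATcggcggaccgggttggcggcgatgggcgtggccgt
Nup210: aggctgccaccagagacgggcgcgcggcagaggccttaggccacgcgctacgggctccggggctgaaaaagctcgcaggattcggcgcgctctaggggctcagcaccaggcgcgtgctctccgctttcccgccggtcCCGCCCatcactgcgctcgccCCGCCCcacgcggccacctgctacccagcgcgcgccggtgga
Nup107: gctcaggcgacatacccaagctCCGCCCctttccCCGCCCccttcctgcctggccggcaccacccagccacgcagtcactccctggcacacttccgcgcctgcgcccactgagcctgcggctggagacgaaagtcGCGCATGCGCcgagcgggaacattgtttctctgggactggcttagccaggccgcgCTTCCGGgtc
Aaas: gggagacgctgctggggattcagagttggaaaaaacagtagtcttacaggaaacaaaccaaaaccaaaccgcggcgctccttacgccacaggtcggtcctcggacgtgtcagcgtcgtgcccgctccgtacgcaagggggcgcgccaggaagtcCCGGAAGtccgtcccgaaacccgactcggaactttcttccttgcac
Nup50: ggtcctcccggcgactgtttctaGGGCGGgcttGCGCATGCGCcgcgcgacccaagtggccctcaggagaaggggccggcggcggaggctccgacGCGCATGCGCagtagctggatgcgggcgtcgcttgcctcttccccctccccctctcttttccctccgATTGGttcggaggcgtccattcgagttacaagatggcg
Ipo7: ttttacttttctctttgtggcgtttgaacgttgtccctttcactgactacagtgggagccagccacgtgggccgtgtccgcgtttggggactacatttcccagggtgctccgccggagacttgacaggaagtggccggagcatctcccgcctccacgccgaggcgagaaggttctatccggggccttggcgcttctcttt
The Kpna4 stretch held 2 CCAAT matches, Nup210 held 2 GC boxes, and Nup107 held 2 GC boxes, 1 NRF1-type and 1 ETS-type match. Aaas held 1 ETS-type match. Nup50, called in the opposite direction, held 2 NRF1-type matches, 1 GC box and 1 CCAAT, and Ipo7 held none of the 4 motifs.

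Over the full windows, the GC box was found in 25 of 37 member windows (67.6%), against 35.7% of all 32851 mouse windows. The NRF1-type palindrome was found in 4 of 37 (10.8%, against 0.971% of all windows), in Nup107, Nup50, Nup62 and Ran. The ETS-type match was found in 7 of 37 (18.9%, against 8.86%) and CCAAT in 17 of 37 (45.9%, against 37.4%). Member windows were richer in G and C, with a median of 64.3% against 52.7% over all windows, which bears on the chance of a GC-rich match. No matches of different motifs overlapped. The medians with and without a match lay close together. The median difference was 0.24 for the 4 genes with the NRF1-type palindrome and 0.30 for the 28 without, and 0.29 with a GC box and 0.28 without. The 6 genes with an ETS-type match were all pore genes (Aaas, Nup107, Nup155, Nup37, Nup54 and Rae1), and they ran from 0.90 for Nup107 to -0.13 for Rae1.

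The outer ring of the pore is built from the Y complex, and its 7 subunits on the member list did not move as a block. Sec13, a subunit outside the list, is given further on. Of the 7 listed subunits, 4 were called higher in Gr1lo and none higher in Gr1hi, with a median difference of 0.23. Nup107 led by a wide margin. Nup160, which sits at the hub of the complex, stood at 8.36, 8.72, 8.55 and 8.28 in Gr1lo, against 8.12, 8.18, 7.81 and 8.05 in Gr1hi. It differed by 0.44 (SE 0.11) without overlap. Nup85, another arm of the complex, stood at 8.67, 8.69, 8.48 and 8.59 in Gr1lo, against 8.24, 8.21, 8.26 and 8.10 in Gr1hi, a difference of 0.41 (SE 0.07). Nup43, a WD-repeat subunit, differed by 0.23 (SE 0.07), with Gr1lo array 3 level with the highest Gr1hi array and the rest apart. Its call was lost in 8 of 20 alternatives, among them leaving out Gr1lo array 1, 2 or 4 or Gr1hi array 2 or 4 (0.19 to 0.29 over all alternatives).

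The other 3 listed Y complex subunits were not called. Nup133, which forms the foot of the complex together with Nup107, stood at 7.75, 7.82, 7.63 and 7.83 in Gr1lo, against 7.63, 7.75, 7.50 and 7.67 in Gr1hi, and the groups overlapped (difference 0.12, 95% interval -0.04 to 0.28). The interval of Nup107 ran from 0.71 to 1.09, so the intervals of these binding partners did not meet. Nup37 differed by -0.05 (95% interval -0.32 to 0.22), with the Gr1hi arrays spread from 6.92 to 7.58. Seh1l, which the pore shares with the nutrient-sensing GATOR complex, ran the other way. It stood at 8.64, 8.85, 8.71 and 8.50 in Gr1lo, against 8.92, 8.95, 8.77 and 8.93 in Gr1hi, a difference of -0.22 (SE 0.08) with overlap through Gr1hi array 3. Of its 5 tested probe sets, 1 was called, higher in Gr1hi (difference -0.28), and the other 4 were also below 0.

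The inner ring lies against the membrane and links the scaffold to the channel. All 4 of its measured members were called higher in Gr1lo with no overlap between the subsets. Over all represented genes 14.1% were called higher in Gr1lo, and 14.7% had every Gr1lo array above every Gr1hi array. Nup93, the linker that anchors the FG proteins of the channel, stood at 8.45, 8.50, 8.31 and 8.40 in Gr1lo, against 8.04, 8.03, 7.86 and 7.92 in Gr1hi (difference 0.45, SE 0.07). Nup205, a large solenoid protein, stood at 8.46, 8.77, 8.57 and 8.60 in Gr1lo, against 8.13, 8.36, 8.17 and 8.01 in Gr1hi (difference 0.44, SE 0.09). The other tested probe set of Nup205 differed by 0.13 and was not called. Nup188, a relative of Nup205, differed by 0.22 (SE 0.07), the smallest difference of the inner ring among the representing probe sets. Nup155, which binds the membrane, differed by 0.27 (SE 0.09), and its lowest Gr1lo value, 7.69, was barely above its highest Gr1hi value, 7.68. The call for Nup155 was lost in 11 of 20 alternatives, among them leaving out any Gr1lo array or Gr1hi array 1 or 3 (differences of 0.20 to 0.33 over all alternatives). The call for Nup188 was lost in 7 of 20, among them leaving out Gr1lo array 1 or 2 or Gr1hi array 2, 3 or 4 (0.18 to 0.26 over all alternatives).

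In the central channel, the 3 measured FG proteins were all called higher in Gr1lo, by 0.20 to 0.37. Nup98, a GLFG-repeat protein that gives the pore much of its barrier and is cut from the same precursor as a Y complex subunit, stood at 9.55, 9.78, 9.64 and 9.60 in Gr1lo, against 9.42, 9.42, 8.97 and 9.30 in Gr1hi. Gr1hi array 3 was well below the rest, and the difference was 0.37 (SE 0.10). A second tested probe set of Nup98 differed by -0.05. Nup62 stood at 10.47, 10.42, 10.36 and 10.53 in Gr1lo, against 10.15, 10.29, 10.24 and 10.29 in Gr1hi, a difference of 0.20 (SE 0.06). Its other 3 tested probe sets showed larger differences, of 0.38, 0.43 and 0.43, so the probe set that stands for the gene gives the lowest of the 4. Nup54, which binds Nup62 in the channel, differed by 0.27 (SE 0.09) with Gr1lo array 1 (8.76) inside the Gr1hi range. Of the 5 tested probe sets of Nup54, 2 were called higher in Gr1lo, and the uncalled ones differed by 0.18, 0.20 and -0.01. The call for Nup54 was lost in 11 of 20 alternatives, among them leaving out any array but Gr1lo 1 (differences of 0.20 to 0.36 over all alternatives). The call for Nup62 was lost in 8 of 20, among them leaving out Gr1lo array 1 or 4 or Gr1hi array 1 or 3 (0.16 to 0.43 over all alternatives), and with the replicate number as a block (limma adjusted p = 0.052).

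All 3 transmembrane members were called higher in Gr1lo. Their median difference of 0.53, the highest of the 10 role groups, is the value of Ndc1, and importin alpha followed at 0.45. The Ndc1 difference ran from 0.41 to 0.57 over the alternatives. Beside Nup210, Ndc1 stood at 6.95, 6.96, 6.89 and 7.08 in Gr1lo, against 6.45, 6.57, 6.25 and 6.49 in Gr1hi (difference 0.53, SE 0.08). Ndc1 is dim here, and Gr1hi array 3 lay below the log2 floor of 6.36. Pom121, an early anchor of new pores, stood at 10.79, 10.82, 10.84 and 10.80 in Gr1lo, against 10.26, 10.54, 10.64 and 10.54 in Gr1hi (difference 0.32, SE 0.08). The Gr1lo arrays were nearly equal and the Gr1hi arrays were not. The other tested probe set of Pom121 differed by 0.11 and was not called.

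At the cytoplasmic face the genes were mixed, with 2 of 5 called higher in Gr1lo. Aaas is described above. Ranbp2, the giant filament protein that binds Ran and carries SUMO ligase activity, stood at 9.33, 9.57, 9.59 and 9.40 in Gr1lo, against 9.07, 9.25, 9.16 and 9.25 in Gr1hi (difference 0.29, SE 0.08). The other 3 were not called. Nup214, the FG protein that docks the exportin Xpo1, stood at 8.89, 8.86, 8.86 and 8.81 in Gr1lo, against 8.88, 8.83, 8.81 and 8.84 in Gr1hi. All 8 arrays were within a narrow band, and the 95% interval of the difference ran from -0.11 to 0.14. Its partner Nup88 differed by 0.15 (SE 0.06), and although its Gr1lo arrays were all above its Gr1hi arrays, by as little as 9.24 against 9.23, it was not called. Rae1, which binds mRNA export complexes, differed by -0.13 (SE 0.09), with Gr1lo array 3 at 8.97 and the other Gr1lo arrays at 9.31 to 9.35. In the nuclear basket, Nup153, which holds the basket to the pore, differed by 0.22 (SE 0.07), opposite in sign to its partner Nup50. Its call was lost in 5 of 20 alternatives, among them leaving out Gr1lo array 2 or 3 or Gr1hi array 3 (0.14 to 0.26 over all alternatives).

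Genes of the Ran cycle were called higher in Gr1lo for 3 of 4, with a median difference of 0.29. Rangap1, the GTPase activator, stood at 8.63, 8.71, 8.57 and 8.90 in Gr1lo, against 8.03, 8.17, 8.27 and 8.19 in Gr1hi (difference 0.53, SE 0.08). Ranbp1, its cytoplasmic cofactor, stood at 10.37, 10.50, 10.35 and 10.57 in Gr1lo, against 10.23, 10.27, 10.15 and 9.95 in Gr1hi (difference 0.30, SE 0.08). Ran itself stood at 11.32, 11.55, 11.36 and 11.44 in Gr1lo, against 11.14, 11.23, 11.09 and 11.06 in Gr1hi (difference 0.29, SE 0.07). No Gr1lo array overlapped a Gr1hi array for these 3 genes, and the call for Ranbp1 was lost without Gr1lo array 4 (0.23 to 0.35 over all alternatives). Rcc1, the nuclear exchange factor, differed by 0.09 (95% interval -0.08 to 0.26) and was not called. The call for Ran rests on probe sets of a kind that can match more than a single transcript: of its 5 tested probe sets the 3 called ones all end in _x_at, and the only one that ends in plain _at differed by -0.02. The plain probe set of Rangap1 differed by -0.05 but lay near the floor, over it in 2 Gr1lo and 3 Gr1hi arrays, while its brighter probe sets differed by 0.53 and 0.41.

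The importin alpha genes split. Kpna4, Kpna1 and Kpna2 were called higher in Gr1lo and Kpna3 was not. Kpna1 stood at 9.19, 9.27, 9.05 and 9.19 in Gr1lo, against 8.74, 8.77, 8.58 and 8.79 in Gr1hi (difference 0.46, SE 0.07), and 4 of its 5 tested probe sets were called. Kpna2 stood at 10.32, 10.51, 10.66 and 10.55 in Gr1lo, against 9.95, 10.05, 10.12 and 10.19 in Gr1hi (difference 0.43, SE 0.08). Neither gene overlapped between the subsets. Kpna3, the closest relative of Kpna4, stood at 8.05, 8.36, 8.11 and 8.24 in Gr1lo, against 8.30, 8.26, 8.24 and 8.23 in Gr1hi. The groups overlapped fully, and the 95% interval of its difference, -0.23 to 0.10, lay far below that of Kpna4, 0.98 to 1.26. All 3 tested probe sets of Kpna3 were uncalled, and the second probe set of Kpna4 was also called higher in Gr1lo but was over the floor in only 1 of 4 Gr1hi arrays, so its difference is not given.

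Among the beta-type importins only Kpnb1 was called higher in Gr1lo. Kpnb1 is importin beta, which carries importin alpha and its cargo through the pore, and stood at 9.73, 9.98, 9.88 and 9.75 in Gr1lo, against 9.32, 9.29, 9.23 and 9.34 in Gr1hi (difference 0.54, SE 0.07). All 4 of its tested probe sets were called, with differences of 0.45 to 0.72. Tnpo1, which imports RNA-binding proteins, differed by 0.28 (SE 0.11) and was not called, and Gr1hi array 4 at 9.82 lay inside the Gr1lo range of 9.62 to 10.04. It was called without that array and also without Gr1lo array 1. The other tested probe set of Tnpo1 differed by -0.01 and was not called. Ipo5, an importer of histones and ribosomal proteins, differed by 0.09 (95% interval -0.06 to 0.24). Both exportins were called higher in Gr1lo without overlap. Xpo1 (CRM1), which exports proteins with leucine-rich signals, stood at 9.37, 9.73, 9.62 and 9.59 in Gr1lo, against 9.17, 9.24, 9.17 and 9.31 in Gr1hi (difference 0.36, SE 0.08). Cse1l (CAS), which returns importin alpha to the cytoplasm, stood at 9.68, 9.85, 9.56 and 9.64 in Gr1lo, against 9.41, 9.31, 9.42 and 9.28 in Gr1hi (difference 0.33, SE 0.07).

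Set against each other, pore and transport genes gave nearly the same picture. Of the 24 pore genes 17 were called higher in Gr1lo (70.8%), 1 higher in Gr1hi and 6 were not called. Of the 14 transport genes 9 were called higher in Gr1lo (64.3%), 1 higher in Gr1hi and 4 were not called. Over all represented genes 14.1% were called higher in Gr1lo and 18.5% higher in Gr1hi. The middle of the pore differences ran from 0.14 to 0.44 (quartiles) and that of the transport differences from 0.14 to 0.45, while quartiles over all represented genes were -0.15 and 0.11. Arrays of the subsets did not overlap, with Gr1lo above, for 16 pore and 9 transport genes, where 14.7% of all represented genes behaved this way. They did not overlap with Gr1hi above for 1 pore and 1 transport gene, against 19.2% of all represented genes. The median spread within subsets was 0.11 for members and for all represented genes alike.

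**Figure D3:**
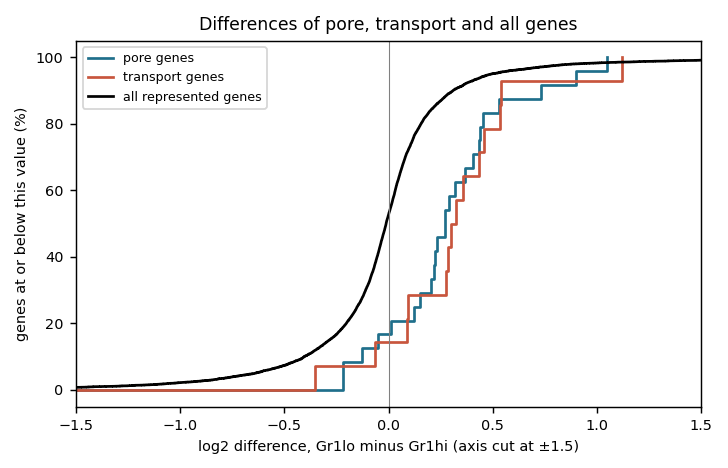
Cumulative share of genes (vertical axis, %) at or below each log2 difference, Gr1lo minus Gr1hi (horizontal axis, drawn from -1.5 to 1.5), for 24 pore genes, 14 transport genes and all 11546 represented genes. The pore and transport curves run together, with medians of 0.27 and 0.31, and to the right of the curve of all genes.

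Per array, each gene was set relative to its mean over the 8 arrays. The median pore gene then stood at 0.09, 0.22, 0.14 and 0.13 in Gr1lo, against -0.15, -0.07, -0.19 and -0.13 in Gr1hi. The median transport gene stood at 0.06, 0.25, 0.09 and 0.18 in Gr1lo, against -0.17, -0.17, -0.18 and -0.13 in Gr1hi. Both classes were thus highest in Gr1lo array 2 and lowest in Gr1hi array 3. The pore median minus the transport median was 0.03, -0.03, 0.04 and -0.05 in Gr1lo, against 0.03, 0.10, -0.01 and 0.00 in Gr1hi, so it overlapped between the subsets. Gr1lo array 2 held the highest of the 8 values for 10 of 24 pore genes (41.7%) and 8 of 14 transport genes (57.1%), against 17.5% of all represented genes. Gr1hi array 3 held the lowest value for 10 of 24 pore genes (41.7%) and 5 of 14 transport genes (35.7%), against 17.0% of all represented genes. The members are not independent of each other across arrays, since they share the same 8 samples.

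**Figure D4:**
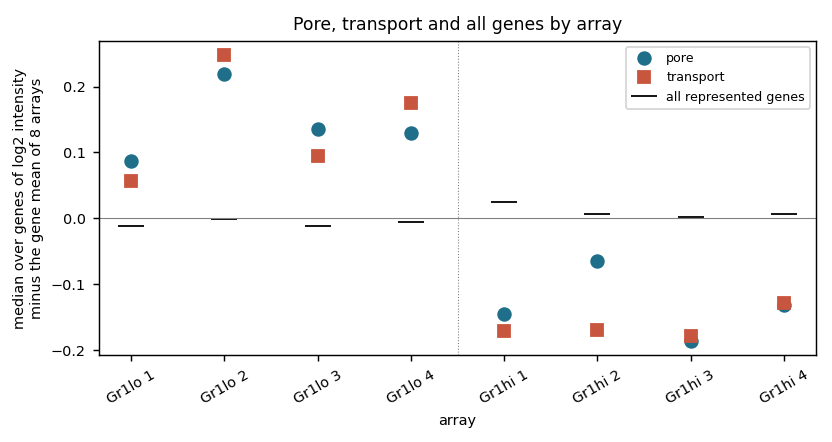
Median over genes of log2 intensity minus the gene's mean of 8 arrays (vertical axis) in each array (horizontal axis, Gr1lo left of Gr1hi), for pore genes (circles), transport genes (squares) and all represented genes (bars). Pore and transport medians are above 0 in all 4 Gr1lo arrays and below 0 in all 4 Gr1hi arrays, while the median of all genes stays near 0.

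Probe sets of the same gene often disagreed on the call, but no gene had probe sets called in opposite directions. Several tested probe sets were at hand for 22 members. For 5 of them all probe sets were called the same way, for 13 some were called and none the other way, and for 4 none was called. Of the 83 tested member probe sets 44 were called higher in Gr1lo (15.2% of all tested probe sets were) and 3 higher in Gr1hi (15.9% of all were, and 31.1% in either direction). Of the 38 representing probe sets, 7 end in _s_at or _x_at, the array's marks for probe sets that can match several transcripts, and 4 end in _a_at, which marks variants of the same gene. With those left out, the sign of the Ran and Rangap1 differences turned, for Rangap1 through the probe set near the floor.

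**Figure D5:**
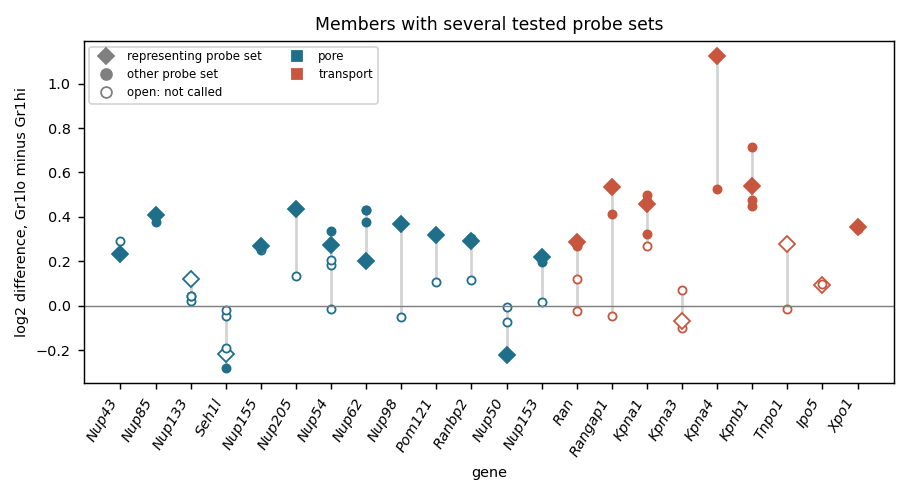
Log2 difference, Gr1lo minus Gr1hi (vertical axis), of each tested probe set for the 22 members that have several (horizontal axis). Diamonds are the probe sets that represent the gene, filled symbols were called, and open symbols were not; Nup62, Kpna4 (its second one dim in Gr1hi) and Kpnb1 have all of their probe sets called, while those of Seh1l and Nup50 lie at or below 0.

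Other genes of the pathway, a list taken from general knowledge after earlier results of these arrays were known, had a lower median than the members and a higher one than all genes. Of 30 further pore and transport genes 28 were tested. Of these, 6 were called higher in Gr1lo (14.1% of all represented genes were) and 2 higher in Gr1hi (18.5% of all were), with a median difference of 0.10. The mRNA export cofactors Nxt2 (difference 0.75, SE 0.13) and Nxt1 (0.37, SE 0.08) led toward Gr1lo. The importins Ipo11 (-0.32, SE 0.10) and Ipo4 (-0.28, SE 0.09) led toward Gr1hi. Chosen after its value was seen, Ahctf1 (ELYS), which seeds pores on chromatin, was called at 0.35, and the Y complex subunit Sec13 was not (-0.14).

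Neighbouring machinery gave counts of called genes to be read against the same 14.1% and 18.5% of all represented genes. Of 15 tested genes of mRNA export, 3 were called in each direction, with the helicase Ddx39b at 0.37 and the THO subunit Thoc5 at 0.26, and with Thoc7 at -0.56 and Thoc6 at -0.26. Of 14 tested genes of the lamina and nuclear envelope, 3 were called higher in Gr1lo, led by Sun2 (0.37) and Banf1 (0.31). In the same list 4 were called higher in Gr1hi, led by the lamin B receptor Lbr (-0.76) and the lamina-associated protein Tmpo (-0.47). Of 7 tested SUMO pathway genes, 2 were called higher in Gr1lo, the activating enzyme subunit Sae1 (0.34) and the protease Senp6 (0.29), and none higher in Gr1hi. The median differences of these 3 lists were 0.00, -0.02 and 0.11, against -0.01 over all represented genes.

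Values of other gene groups are set beside the members here, where 14.1% of all represented genes were called higher in Gr1lo and 18.5% higher in Gr1hi. Of 21 listed proliferation genes 13 were tested, and Birc5, Ccnb1, Ccnb2, Cdk1, Bub1, Rrm2, Tyms and Ccne2 were not. Of the 13, 8 were called higher in Gr1lo, led by the replicative helicase subunits Mcm5 (1.36) and Mcm6 (1.24). The other called ones were Mcm2, Mcm3, Mcm4, Mcm7, Pcna and Top2a, the last below the floor on average in Gr1hi. Ccna2 (-0.01), Plk1 (-0.09) and Ccne1 (0.07) were not called. Another 2 were called higher in Gr1hi, Aurkb (-1.13) and Mki67 (-0.52). Both of these were below the floor on average in Gr1lo, so their intensity in Gr1lo was at least 1.75-fold and at least 1.32-fold lower, taken to the floor. The summed intensity of all 13 tested proliferation genes ran from 6423 to 7192 in the Gr1lo arrays, against 4564 to 4742 in the Gr1hi arrays. Pcna was by far the brightest of the 13, with mean log2 intensities of 11.87 in Gr1lo and 11.35 in Gr1hi. Of 12 tested immediate early genes 4 were called higher in Gr1lo, led by Jun (1.60) and Nr4a1 (1.23), and 2 higher in Gr1hi, Fos (-2.25) and Atf3 (-0.82). The sum of all 12 ran from 15772 to 18900 in Gr1lo, against 12179 to 15301 in Gr1hi. Of 5 tested B cell genes 2 were called, both higher in Gr1hi and both below the floor on average in Gr1lo. The sum of the 5 ran from 526 to 831 in Gr1lo, against 730 to 1173 in Gr1hi. NK cell genes had 1 of 2 called higher in Gr1lo (sum 537 to 666 in Gr1lo, against 424 to 492 in Gr1hi), 1 of 6 neutrophil genes was called higher in Gr1hi (sum 520 to 682 in Gr1lo, against 592 to 1046 in Gr1hi), and 1 of 2 progenitor genes was too (sum 404 to 496 in Gr1lo, against 570 to 611 in Gr1hi). The 6 general monocyte genes summed to 43199 to 44433 in Gr1lo, against 44131 to 46091 in Gr1hi. None of 3 T cell, 5 platelet or 2 red cell genes was called. The T cell sum ran from 448 to 587 in Gr1lo, against 443 to 521 in Gr1hi. Platelet genes summed to 1847 to 5210 in Gr1lo, against 1591 to 4017 in Gr1hi. Red cell genes summed to 916 to 4036 in Gr1lo, against 863 to 2696 in Gr1hi. Platelet and red cell signal thus varied widely between arrays of the same subset. Not tested were 4 of 6 listed NK cell genes, 3 of 6 T cell, 3 of 9 neutrophil, 3 of 5 red cell, 2 of 4 progenitor and 1 of 6 B cell genes. No listed marker is at 0, but the lowest intensity of the whole table is 8.64, so this says nothing about detection. The part of all these groups in the pore and transport differences was not tested.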

How the data were processed

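Expression was measured on 8 arrays, 4 Gr1lo and 4 Gr1hi. The authors deposited an intensity per probe set, not on a log scale, between 8.64 and 27145. Per the submitters' processing notes GCRMA and MAS5 were used, with no version, role or order, and which of them made these values is not given in the sources used here. Per the labels' protocols, RNA was amplified by transcription for 64 h instead of 4 h, and long amplification can change measured ratios.

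The deposited intensities were log2-transformed without a pseudocount. After 64 array controls were left out, 22831 of 45037 probe sets passed the filter (over the table median of 81.9 in at least 4 arrays) and went into a limma model (version 3.58.1, R 4.3.3; lmFit and eBayes without a block). Its two-sided p-values were adjusted by Benjamini-Hochberg across the whole tested table. Symbols came from the platform annotation (34945 probe sets with 1 symbol, 932 with several, 9160 with none here), and all 38 matched members were found in the RefSeq gene table by Entrez identifier. Differences had a median SE of 0.08. Sequences came from RefSeq promoter windows, searched with a script in Python 3.11.15. Protein sequences, planned as a source of repeat counts, were not used here.

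The members and lists were chosen with earlier results of these data known. Every measured member is named, and of each neighbouring list the 2 called genes with the largest difference in each direction. For the proliferation list, every listed gene is named. Alternatives were a replicate block, leaving out arrays, other filters, normalizations, scales, variance models and weights, other choices of probe set, and a stricter threshold.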

Additional observations from a re-analysis of the deposited data

Results flagged for a closer look

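For each of the 38 members and each subset, the array farthest from the other 3 was compared with Dixon's 95% critical value of 0.829. Of the 76 sets of 4 arrays, 3 held an array past it, and chance flags about 1 in 20 such sets. Rae1 was low in Gr1lo replicate 3, at 8.97 with the next array at 9.31. Seh1l was low in Gr1hi replicate 3, at 8.77 with the next array at 8.92. Rcc1 was low in the same array, Gr1hi replicate 3, at 7.41 with the next array at 7.67. None of these 3 genes was called. Without Gr1hi replicate 3, Seh1l was called higher in Gr1hi.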

How the results depend on the processing

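Of the 28 called members, 14 kept their call in every one of the 20 alternatives that gave them a value, Kpna4, Nup210, Nup107 and Aaas among them. Of the 10 others, 3 (Seh1l, Nup88 and Tnpo1) were called under some alternative. Leaving out 1 array gave 12 to 14 pore genes called higher in Gr1lo (17 with all arrays), 8 to 10 transport genes (9) and 1 to 3 members higher in Gr1hi (2), with pore medians of 0.24 to 0.31 and transport medians of 0.27 to 0.34. At an adjusted p under 0.01, 2290 probe sets over the whole table were called higher in Gr1lo (3472 at 0.05), with 8 pore genes higher in Gr1lo and 0 members higher in Gr1hi. The count higher in Gr1hi was 1 without a filter and 1 with the mean of a gene's probe sets, and it was 0 without both arrays numbered 1. Fewer probe sets pass a stricter threshold by construction. With only probe sets ending in _at, Ran differed by -0.025 and Rangap1 by -0.046, since another probe set then stood for each gene, near the floor for Rangap1.

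The replicate block ended the call of Nup62 alone among the members and gave 16 pore and 9 transport genes called higher in Gr1lo and 2 members higher in Gr1hi, with 3547 and 3617 probe sets called higher in Gr1lo and in Gr1hi. Deviations of same-numbered arrays correlated at 0.27, 0.34, -0.03 and -0.10 across probe sets, so the numbers were not taken to pair the samples. Gr1lo arrays 1 and 2 correlated best with the Gr1hi array of their own number. Gr1lo array 3 correlated best with Gr1hi array 4 (0.55), and Gr1lo array 4 with Gr1hi array 3 (0.30). The replicate block used the numbers as given, and no model was fitted with these closest matches as blocks. Whether arrays of both subsets share a sort under different numbers was not tested, so the differences and calls given here are unpaired. Signal near background, as for Ndc1, limits the smallest values.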
